A study of Mus musculus with 6 samples.

Results

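The genes described here encode proteins that hepatocytes, the main cell type of the liver, secrete into the blood plasma: *Alb*, *Afp*, *Apoa1*, *Apoa2*, *Apob*, *Ahsg*, *Fga*, *Fgb*, *Fgg* and *Trf*. They were read in whole embryonic pancreases as every probe set (the group of short probes that reports a transcript on the array) annotated to 1 of these 10 genes alone. Such probe sets were found for 9 of the 10 genes, 17 probe sets of the 34958 with a single gene symbol. *Trf*, which encodes transferrin, the iron carrier of plasma, is annotated only on a probe set shared with its neighbour *Srprb*, and no value of *Trf* is given. The genes were selected on their signals in these same arrays, with their shared highest arrays and their difference between the genotypes known, so that both are described here without a test.

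RNA of pancreases at embryonic day (e) 15.5 came from 3 *Jarid2* KO embryos, in which *Jarid2* was deleted in pancreatic progenitors (*Pdx1-Cre;Jarid2* flox/flox, called Jarid2Δpanc in the study), and from 3 wild-type embryos (*Jarid2* WT), all of the C57BL/6 strain. *Jarid2* encodes a facultative component of Polycomb Repressor complex 2. *Pdx1-Cre* recombines in the pancreatic epithelium in a mosaic manner and leaves other cell types of the organ with intact *Jarid2*. The labels do not say whether the wild-type embryos carried Cre or a floxed allele, and the description field speaks of islets kept in glucose, against embryonic pancreas in the title, source and tissue fields. A starting amount of 50 ng RNA per sample went through 2 cycles of cDNA synthesis before hybridization.

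In the fetus, hepatocytes synthesize and secrete most proteins of the plasma, and the yolk sac makes several of the same proteins. Albumin and α-fetoprotein are related carrier proteins, and α-fetoprotein is the one that predominates before birth. Apolipoproteins build the lipoprotein particles that carry lipids, and the 3 fibrinogen chains assemble into the precursor of the fibrin clot. Pancreas and liver arise next to each other from the foregut endoderm, and transcription factors such as Hnf4a and the Foxa proteins act in both organs.

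The pancreas label was borne out by bright markers, such as *Ctrb1* (chymotrypsinogen) with 13150 to 17557 and *Pdx1* with 376 to 445. All 12 acinar, 12 endocrine and 6 progenitor genes measured had signals above 16 on every array. This alone says little, since 12490 of all 18194 genes had such signals too. Signals are linear intensities with a trimmed mean of 150 and a median of 35.0 to 38.0. Values under 16 (26.5% to 29.0% of each array) were raised to this floor before the log2 scale was used. Arrays of the same genotype correlated at 0.977 to 0.983 over all probe sets. The arrays also differed in more than the genotype. *Jarid2* WT replicate 3 held skeletal muscle transcripts (*Acta1* 3076, against at most 62 on the other arrays). The Y-linked *Eif2s3y* reached 560 in *Jarid2* WT replicate 1 and 506 in *Jarid2* WT replicate 2, with 13 or less on the other 4 arrays. *Xist*, a transcript of female cells, had 4662, 4905 and 4197 in *Jarid2* KO replicates 1, 2 and 3, and 24, 12 and 4390 in *Jarid2* WT replicates 1, 2 and 3. By these transcripts the 3 KO samples and WT replicate 3 read as female, and WT replicates 1 and 2 as male. Sex thus runs partly along with the genotype. The transcript of *Jarid2* itself had 392, 398 and 355 in KO and 335, 301 and 415 in WT pancreases. Where its probes lie relative to the deleted part was not analysed here, so that these values do not check the deletion.

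Albumin (*Alb*), the most abundant protein of adult plasma and a carrier of fatty acids and hormones, differed more within each genotype than between them. Its signal was 137, 47 and 790 in *Jarid2* KO replicates 1, 2 and 3, and 58, 751 and 86 in *Jarid2* WT replicates 1, 2 and 3. One KO and one WT pancreas were therefore high, the other 4 were low, and the groups overlapped. KO replicate 3 was 5.77-fold above the next KO array, and WT replicate 2 was 8.73-fold above the next WT array. The group means were 325 ± 405 in KO and 298 ± 392 in WT (SD, n = 3 each), with a log2 fold change of 0.15 (standard error 1.55).

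α-Fetoprotein (*Afp*), the fetal relative of albumin, was highest on the same arrays as *Alb*. The brightest of its 5 probe sets had 726, 507 and 1736 in *Jarid2* KO replicates 1, 2 and 3, and 479, 1917 and 523 in *Jarid2* WT replicates 1, 2 and 3. KO replicate 3 and WT replicate 2 were again far above the other 4 arrays, and KO replicate 1 again came next. The log2 fold change was 0.14 (standard error 0.78). The highest array was 4.0-fold above the lowest for *Afp* and 16.8-fold for *Alb*.

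A further pair of *Afp* probe sets had the same highest arrays, and the other 2 did not. The pair had 745 and 522 in KO replicate 3 and 781 and 638 in WT replicate 2, and at most 268 and 238 on the other arrays. Of those that did not, one stayed between 62 and 102 on all arrays, and the other had 17 in WT replicate 1 and at most 2 elsewhere, so that it gave no level.

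The glycoprotein α2-HS (*Ahsg*, fetuin-A), an inhibitor of calcification that is abundant in fetal plasma, was dim. It had 10, 1 and 37 in *Jarid2* KO replicates 1, 2 and 3, and 15, 32 and 3 in *Jarid2* WT replicates 1, 2 and 3. Only KO replicate 3 and WT replicate 2 exceeded 16.

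**Figure D1:**
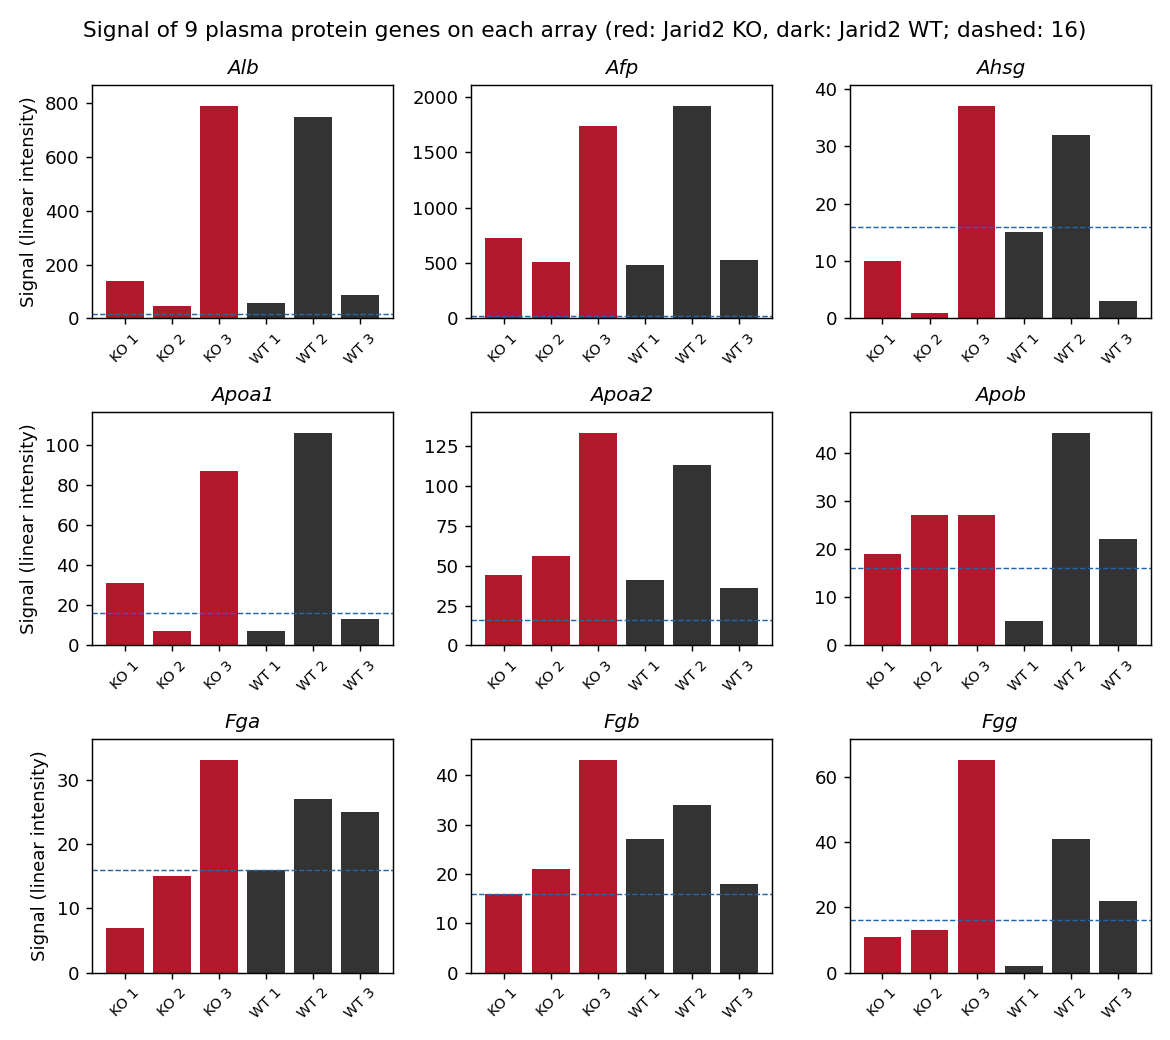
Signal (linear intensity, vertical axis from 0, with its own scale for each gene) of the probe set with the highest mean of 9 plasma protein genes on each of the 6 arrays, in red for *Jarid2* KO and dark for *Jarid2* WT, with a dashed line at 16. Bars of KO replicate 3 and WT replicate 2 are the tallest for every gene except *Apob*; for *Alb* they reach 790 and 751, against at most 137 on the other 4 arrays.

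Among the apolipoproteins, *Apoa1* and *Apoa2* were highest on the same arrays as *Alb*, whereas *Apob* was not. *Apoa1*, the main protein of high-density lipoprotein, had 31, 7 and 87 in *Jarid2* KO replicates 1, 2 and 3, and 7, 106 and 13 in *Jarid2* WT replicates 1, 2 and 3, with the brightest of 4 probe sets. KO replicate 3 and WT replicate 2 were the highest arrays in all 4, at 43 to 87 in KO replicate 3 and 66 to 106 in WT replicate 2, while no other array exceeded 31. Its log2 fold change was 0.22 (standard error 1.08), and over the 4 probe sets it ran between -0.33 and 0.22.

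*Apoa2*, the second protein of high-density lipoprotein, was above 16 on all arrays. Its signal was 44, 56 and 133 in *Jarid2* KO replicates 1, 2 and 3, and 41, 113 and 36 in *Jarid2* WT replicates 1, 2 and 3. The means were 77.7 ± 48.3 in KO and 63.3 ± 43.1 in WT (SD, n = 3 each), a log2 fold change of 0.32 (standard error 0.67), the largest of the 9 genes.

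*Apob*, the structural protein of low-density lipoprotein and of the particles that liver, intestine and yolk sac export, was near the limit of detection. The brighter of 2 probe sets had 19, 27 and 27 in *Jarid2* KO replicates 1, 2 and 3, and 5, 44 and 22 in *Jarid2* WT replicates 1, 2 and 3. WT replicate 2 was the highest array, but KO replicate 3 equalled KO replicate 2. In the other probe set, which lay between 4 and 28, WT replicate 2 was the lowest array. The 2 probe sets thus disagree, and no order of arrays can be read for *Apob*.

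**Figure D2:**
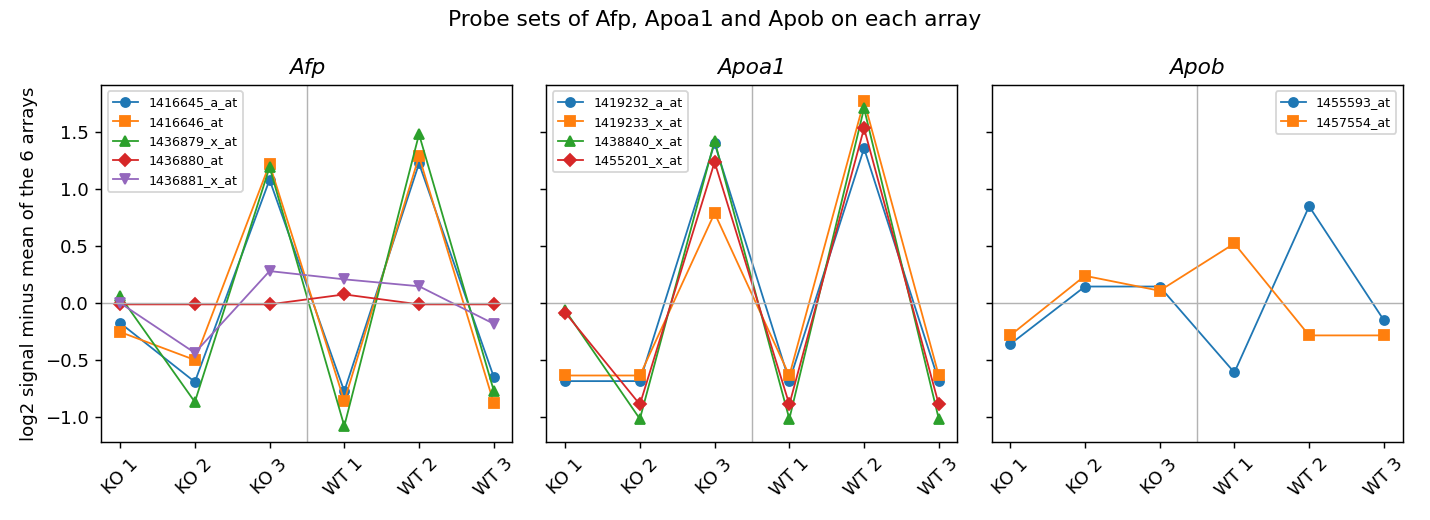
log2 signal (floored at 16) minus its mean over the 6 arrays (vertical axis) on each array (horizontal axis) for the 5 probe sets of *Afp*, the 4 of *Apoa1* and the 2 of *Apob*, with *Jarid2* KO arrays left of the grey line and *Jarid2* WT arrays right of it. In *Afp* 3 probe sets, and in *Apoa1* all 4, peak in KO replicate 3 and WT replicate 2, whereas 2 probe sets of *Afp* stay near 0 and the 2 of *Apob* run apart.

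The chains of fibrinogen were dim, but their highest arrays were the same. *Fgg*, the γ chain, had 11, 13 and 65 in *Jarid2* KO replicates 1, 2 and 3, and 2, 41 and 22 in *Jarid2* WT replicates 1, 2 and 3. *Fgb*, the β chain, had 16, 21 and 43 in the KO replicates, and 27, 34 and 18 in the WT replicates. *Fga*, the α chain, had 7, 15 and 33 in the KO replicates, and 16, 27 and 25 in the WT replicates. In KO replicate 3 *Fgg* was at least 4.06-fold above the other KO arrays, both of which lay under the floor of 16. In WT replicate 2 it was 1.86-fold above the next WT array, and *Fga* 1.08-fold, a signal of 27 against 25. *Fgb* was above 16 on 5 arrays, and *Fga* and *Fgg* on 3.

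Over the 9 genes, *Jarid2* KO replicate 3 and *Jarid2* WT replicate 2 were the highest arrays in 8 (88.9%), all but *Apob*, and in 13 of 17 probe sets. Over all 18194 genes measured, with 1 probe set each, 4.24% had these arrays as the highest. Since the genes were chosen with their levels known, the share describes them and is no evidence of its own. The spread within genotypes was wide for the brighter members. The standard deviation of log2 signals within genotypes was 2.02 for *Alb*, 1.41 for *Apoa1*, 1.02 for *Afp*, 0.96 for *Fgg* and 0.87 for *Apoa2*, against a median of 0.17 over all genes, and *Alb* had the 15th largest of the 18194. In these whole-organ samples, more cells of a type and more RNA per cell cannot be told apart. The arrays fell into a high pair and 4 low ones, so that no correlation between the members over the arrays is given.

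The difference between *Jarid2* KO and *Jarid2* WT pancreases was small beside this spread for each gene. Of the 9 genes, 6 had a positive and 3 a negative log2 fold change, from -0.12 for *Fga* to 0.32 for *Apoa2*, with a median of 0.07 against 0.0 over all genes. In 0 of the 9 did every KO array lie below every WT array, as 5.64% of all genes did, and in 0 did every KO array lie above, as 5.71% did. With limma over 34958 probe sets, 0.0% were lower and 0.00286% (1 probe set, none of the members') were higher at an adjusted p under 0.05, and an unadjusted p under 0.05 was found for 1280 lower and 1611 higher ones. The values do not show that the genotypes are alike: the 95% interval of the log2 fold change ran from -3.95 to 4.25 for *Alb*, from -1.94 to 2.21 for *Afp* and from -1.44 to 2.09 for *Apoa2*.

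The direction of the fold change rested on single arrays. Without KO replicate 3 the log2 fold change of *Alb* was -0.95, and without WT replicate 2 it was 1.28. For *Afp* these values were -0.37 and 0.78, and for *Apoa1* -0.43 and 1.13. The median over the 9 genes was -0.43 without KO replicate 3 and 0.44 without WT replicate 2, and it was also negative without WT replicate 1 (-0.23) or WT replicate 3 (-0.14). Against WT replicate 3 alone, the control array that, like the 3 KO arrays, lacked Y-linked transcripts, the median was 0.44.

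**Figure D3:**
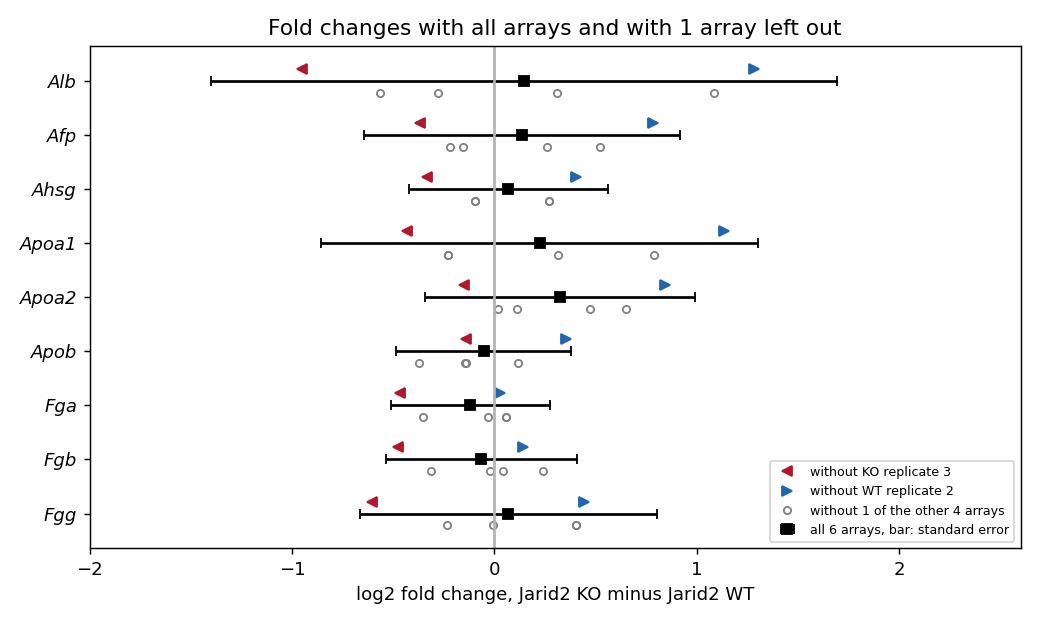
log2 fold change (*Jarid2* KO minus *Jarid2* WT, horizontal axis) of the 9 genes with all 6 arrays (squares, bars for the standard error), without KO replicate 3 (red), without WT replicate 2 (blue) and without each other array (open circles). Every gene moves to the left without KO replicate 3 and to the right without WT replicate 2, as *Alb* does with -0.95 and 1.28.

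Promoters of the members are shown because most of the genes share their highest arrays and C/EBP factors are known to bind the albumin promoter. Windows from 250 bases before to 50 bases after the annotated start were taken from RefSeq (GRCm38.p6), and 10 windows matched the 9 genes. In the sequences below, all on the plus strand, capitals mark the letters TTNNGCAA or their reverse complement TTGCNNAA, which resemble sites of C/EBP factors. The windows lie at chr5:90460620-90460919 (*Alb*), chr5:90490464-90490763 (*Afp*), chr3:83025903-83026202 (*Fga*) and chr9:46228380-46228679 (*Apoa1*), the last shown as a member with no match.
Alb: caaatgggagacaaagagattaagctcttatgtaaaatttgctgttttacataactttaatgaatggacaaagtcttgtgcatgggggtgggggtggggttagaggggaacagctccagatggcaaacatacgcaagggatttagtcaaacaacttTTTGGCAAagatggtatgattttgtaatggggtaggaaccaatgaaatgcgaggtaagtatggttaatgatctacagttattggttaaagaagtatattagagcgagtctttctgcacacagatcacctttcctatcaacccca
Afp: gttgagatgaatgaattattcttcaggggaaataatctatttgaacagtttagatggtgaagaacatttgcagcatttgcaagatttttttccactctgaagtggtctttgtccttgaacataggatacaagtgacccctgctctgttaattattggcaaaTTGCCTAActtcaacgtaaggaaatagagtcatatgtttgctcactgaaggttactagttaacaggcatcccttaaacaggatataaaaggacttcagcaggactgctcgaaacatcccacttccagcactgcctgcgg
Fga: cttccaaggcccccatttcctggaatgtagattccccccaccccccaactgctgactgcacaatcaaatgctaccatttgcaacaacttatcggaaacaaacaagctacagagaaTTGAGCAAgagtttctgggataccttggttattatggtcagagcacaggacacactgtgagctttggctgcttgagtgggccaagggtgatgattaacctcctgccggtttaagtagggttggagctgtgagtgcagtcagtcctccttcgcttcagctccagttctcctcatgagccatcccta
Apoa1: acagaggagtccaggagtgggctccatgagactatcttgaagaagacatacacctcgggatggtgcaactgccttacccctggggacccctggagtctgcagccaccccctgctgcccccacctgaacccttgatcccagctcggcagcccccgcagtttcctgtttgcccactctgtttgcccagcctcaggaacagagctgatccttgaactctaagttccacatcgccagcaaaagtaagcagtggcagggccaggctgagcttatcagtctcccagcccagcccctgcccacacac

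These letters were found in 7 of the 9 genes, all but *Apoa1* and *Fgg*, and in 10.8% of all 32851 promoter windows, both strands searched. They began 94 bases before the start of *Alb*, 89 before that of *Afp*, 135 before that of *Fga* and 80 before that of *Fgb*. TGTTTAC, which resembles Foxa sites, was in *Apoa2* alone (3.65% of all windows), and CAAAGTCCA, which resembles Hnf4a sites, was in none (0.475%). No match overlapped another one. These are matches of letters and show no binding.

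*Alb* and *Afp* are neighbours on chromosome 5, and *Fgg*, *Fga* and *Fgb* follow each other on chromosome 3. Of 14 coding genes next to the members, 3 (21.4%, against 4.24% of all genes) had KO replicate 3 and WT replicate 2 as the highest arrays. These were *Afm*, *Plrg1* and *1300017J02Rik*, the last beside *Trf*. In each the lower of the highest arrays exceeded the next array by little. It was 548 against 539 for *Afm*, 637 against 634 for *Plrg1*, and 33 against 31 for the dim *1300017J02Rik*. Afamin (*Afm*), a further member of the albumin family beside *Afp*, had 476, 452 and 548 in *Jarid2* KO replicates 1, 2 and 3, and 539, 556 and 476 in *Jarid2* WT replicates 1, 2 and 3, so that its arrays differed far less than those of *Afp*. *Apoc3*, the apolipoprotein gene beside *Apoa1*, had 33, 16 and 24 in KO and 26, 24 and 10 in WT replicates, and *Fetub* beside *Ahsg* had 24, 12 and 36 in KO and 29, 22 and 22 in WT replicates.

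Of the other plasma proteins of hepatocytes a few shared the highest arrays of the members, and the brightest did not. Of 75 measured genes in a list of further plasma proteins, 9 (12%) had KO replicate 3 and WT replicate 2 as the highest arrays, against 4.24% of all genes. Among them were antithrombin (*Serpinc1*), an inhibitor of coagulation, with 26, 22 and 41 in *Jarid2* KO replicates 1, 2 and 3 and 8, 60 and 27 in *Jarid2* WT replicates 1, 2 and 3, and *Itih2*, an inter-α-trypsin inhibitor chain, with 52, 40 and 80 in KO and 53, 78 and 41 in WT replicates. The others were *Apoc2*, *Plg*, *Kng1*, *Itih1*, *Itih3*, *Cfi* and *Lcat*. Of the 75 genes, 25 were above 16 on every array and 12 were at or below it on all, as were 12490 and 1573 of all 18194 genes.

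The 4 brightest genes of that list did not have KO replicate 3 and WT replicate 2 as the highest arrays. Their spread within each genotype was small beside their means. *Serpina6*, which encodes the corticosteroid carrier of plasma, had 9326, 11489 and 10230 in *Jarid2* KO replicates 1, 2 and 3, and 9410, 11389 and 10913 in *Jarid2* WT replicates 1, 2 and 3. *Ttr* (transthyretin), *Selenop* (a selenium carrier) and *Ambp* (the precursor of α1-microglobulin) had means of 8723 ± 709, 5148 ± 331 and 3132 ± 288 in KO, and 11013 ± 676, 6178 ± 181 and 3705 ± 63.2 in WT (SD, n = 3 each). In these 3 every KO array lay below every WT array, with log2 fold changes of -0.34, -0.26 and -0.25 and adjusted p of 0.392, 0.349 and 0.503 from limma over all probe sets. None passed the threshold. All 12 acinar and all 12 endocrine genes measured also had negative log2 fold changes, with medians of -0.44 and -0.34. Of the 6 progenitor genes 3 did, with a median of -0.03. Which cells of the organ gave the signals of *Ttr*, *Selenop* and *Ambp* was not tested.

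The 1 probe set that passed it belongs to this list. It is one of 8 probe sets of *Cp* (ceruloplasmin, the copper carrier of plasma), with 23 on each of the 3 KO arrays and 7, 13 and 16 on the WT arrays. All WT values stood at the floor and the KO values were equal, so that neither group had any spread, and its log2 fold change of 0.52 (adjusted p = 0.00461 from limma) depends on the floor. With a floor of 1, no probe set passed. The probe set of *Cp* with the highest mean had 30, 13 and 9 in KO and 17, 26 and 25 in WT replicates.

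Of 38 enzymes and transporters of hepatocytes measured, 1 (2.63%, *Hsd17b13*) had KO replicate 3 and WT replicate 2 as the highest arrays, against 4.24% of all genes. Of the 38, 12 were above 16 on every array, such as the tyrosine catabolic enzyme *Fah* with 102 to 117 in KO and 78 to 118 in WT and the urea cycle enzyme *Arg1* with 66 to 83 in KO and 38 to 61 in WT, and 3 were at or below it on all. Others were near the floor, such as the urea cycle enzyme *Cps1* (3, 2 and 8 in KO and 13, 14 and 18 in WT) and the asialoglycoprotein receptor *Asgr1* (12, 18 and 9 in KO and 2, 13 and 8 in WT). Among the brightest, the methyl donor enzymes *Mat1a* and *Gnmt* had means of 167 ± 14.2 and 148 ± 14.5 in KO and 231 ± 13.6 and 234 ± 23.6 in WT (SD, n = 3 each). Their log2 fold changes of -0.47 and -0.67 did not pass (adjusted p = 0.289 and 0.266 from limma). The glucose transporter *Slc2a2* and the gluconeogenic enzyme *Fbp1* had log2 fold changes of -0.09 and -0.35, of which neither passed (adjusted p = 0.966 and 0.511 from limma).

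Of 19 transcription factors that act in liver and pancreas, 15 were above 16 on every array. Of the 19, 0 had KO replicate 3 and WT replicate 2 as the highest arrays, against 4.24% of all genes. *Hnf4a*, a regulator of many plasma protein genes, had 277, 306 and 294 in *Jarid2* KO replicates 1, 2 and 3, and 282, 356 and 300 in *Jarid2* WT replicates 1, 2 and 3. *Hhex*, a homeobox gene of liver and pancreas, had means of 504 ± 44.6 in KO and 341 ± 18.6 in WT (SD, n = 3 each), a log2 fold change of 0.56 (adjusted p = 0.251 from limma). *Nr5a2*, *Foxa2* and *Foxa3* had log2 fold changes of 0.01, -0.07 and -0.21. *Foxa1* was dim, with 59, 51 and 34 in KO replicates 1, 2 and 3, and 19, 19 and 12 in WT replicates 1, 2 and 3. Its log2 fold change of 1.38 did not pass (adjusted p = 0.278 from limma). In 4 of the 19, *Foxa1*, *Hhex*, *Prox1* and *Zhx2*, every KO array lay above every WT array, as in 5.71% of all genes.

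Receptors for the plasma proteins and genes of lipoprotein assembly were highest in KO replicate 3 and WT replicate 2 in 2 of 13 (15.4%, against 4.24% of all genes). These were *Cideb* and *Lcat*, and *Lcat* was already counted among the further plasma proteins. Both were dim, and the lower of the highest arrays exceeded the next by little, with 33 against 30 for *Cideb* and 32 against 31 for *Lcat*. The transferrin receptor *Tfrc* had 988, 1087 and 1569 in *Jarid2* KO replicates 1, 2 and 3, and 881, 1110 and 1504 in *Jarid2* WT replicates 1, 2 and 3. Its highest arrays were replicates 3 of both genotypes. The lipid exporter *Abca1*, which loads apolipoprotein A-I, had means of 750.0 ± 58.8 in KO and 592 ± 79.2 in WT, a log2 fold change of 0.35 (adjusted p = 0.577 from limma). *Scarb1*, the receptor of high-density lipoprotein, and *Sar1b*, a GTPase of vesicle export, each had -0.08. *Mttp*, which is needed to assemble particles on apolipoprotein B, was dim, at 45 to 56 on all arrays.

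In the lists above, no gene passed the adjusted threshold from limma with the probe set that stands for it. At an unadjusted p under 0.05, 4.38% of all genes were lower and 4.28% higher. Of the 75 further plasma proteins 5 (6.67%) were lower and 2 (2.67%) higher, and of the 38 enzymes and transporters 3 (7.89%) were lower and 1 (2.63%) higher. Of the 19 transcription factors 0 were lower and 4 (21.1%) higher, and of the 13 receptors and assembly genes 0 were lower and 2 (15.4%) higher. Among the pancreas markers, 8 of 12 acinar genes (66.7%) and 6 of 12 endocrine genes (50.0%) were lower and 0 higher. Of the 6 progenitor genes 0 were lower and 0 higher.

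Markers of other cell types were read in the same way. Fetal liver also holds erythroid cells, and this list does not tell those of liver from those of blood. Of 12 erythroid genes, 1 (8.33%, *Ermap*, against 4.24% of all genes) had KO replicate 3 and WT replicate 2 as the highest arrays. The sum of the signals of the 12 genes was 4567 to 5402 in *Jarid2* KO and 3130 to 8147 in *Jarid2* WT, with the lowest value in WT replicate 2. Most of this sum is the embryonic globin *Hbb-y*, and the mean log2 signal of the 12 genes, centred on its mean over the arrays, was instead highest in WT replicate 2 (0.26, against -0.03 in KO replicate 3 and -0.25 to 0.19 on the other arrays). The anion exchanger *Slc4a1*, *Epb42* and *Rhag* were highest in WT replicate 2, at 204, 40 and 34, the last against 32 in KO replicate 1. *Hba-a1*, *Epor* and *Ermap* were also highest there. The rest of the list was not. *Alas2* and *Gata1* were highest in KO replicate 1 (172 and 44), *Klf1* in KO replicate 3 (60), and *Hba-x*, *Hbb-bh1* and *Hbb-y* in WT replicate 3. *Hba-x* was lowest in WT replicate 2 (164). *Hbb-y* had 4279, 3965 and 4734 in KO replicates 1, 2 and 3, and 4864, 2292 and 7319 in WT replicates 1, 2 and 3. The sum of the 9 members was 694 to 2951 in KO and 650 to 3065 in WT, with the highest value in WT replicate 2. None of 10 macrophage, 12 acinar, 12 endocrine, 6 progenitor, 9 mesenchyme, 14 skeletal muscle, 15 gut epithelium and 5 yolk sac endoderm genes had KO replicate 3 and WT replicate 2 as the highest arrays. Of all genes 4.24% had, so that a count of 0 in lists this short is near that share. Of the gut genes 7 were above 16 on every array, such as *Tff1* (172 to 226 in KO and 128 to 227 in WT), while *Fabp2*, *Apoa4* and *Cdh17* had at most 19 on any array. Of the yolk sac genes 1 was above 16 on every array, *Sox17* (164 to 195 in KO and 119 to 170 in WT), and *Cubn* had at most 19. Whether RNA of liver or other tissue in some samples contributes to the levels of the members was not tested.

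**Figure D4:**
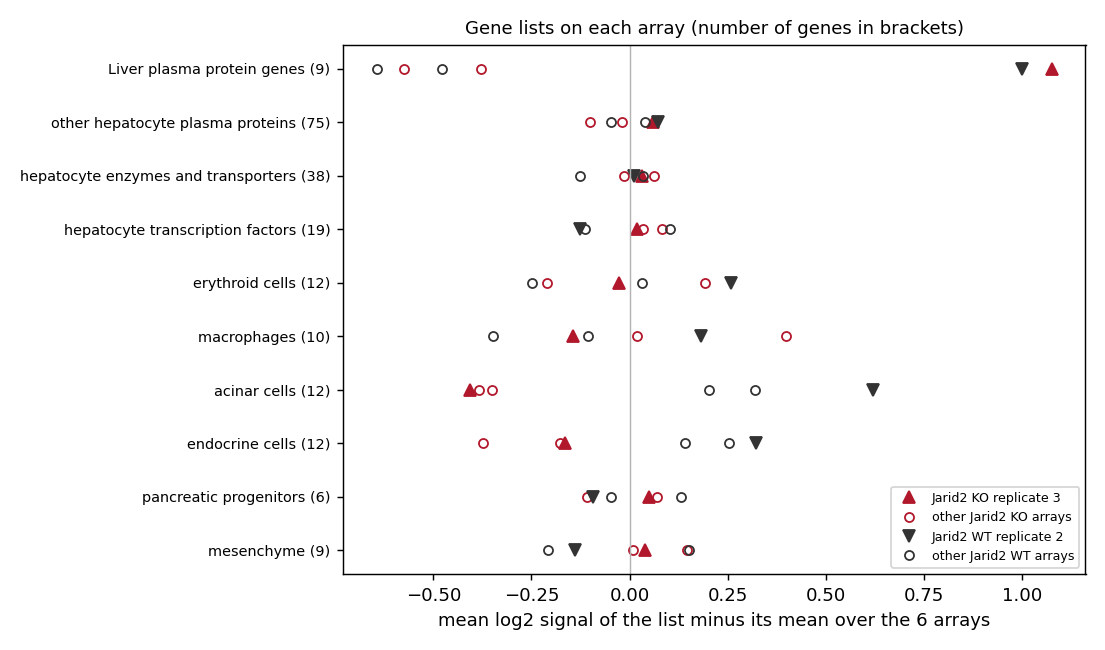
Mean log2 signal of 10 gene lists on each array minus the mean of the list over the 6 arrays (horizontal axis), with red for *Jarid2* KO and dark for *Jarid2* WT arrays, filled triangles for KO replicate 3 and WT replicate 2, and the number of genes in brackets. The plasma protein genes lie at 1.08 in KO replicate 3 and 1.00 in WT replicate 2 and at -0.64 to -0.38 on the other arrays, while the other hepatocyte lists lie between -0.13 and 0.10 on all arrays. Among those lists, the other plasma proteins, many of them near the floor, are also highest in WT replicate 2 (0.07) and KO replicate 3 (0.06), against -0.10 to 0.04 on the other arrays.

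Likeness to the members was measured as Pearson's r over the 6 arrays with the mean profile of *Alb*, *Afp*, *Apoa1* and *Apoa2*, for the 117 other genes with a mean log2 of at least 6 and a standard deviation of at least 0.5. These values describe 6 arrays of which 2 set the profile. The nearest were the red cell anion exchanger *Slc4a1* (r = 0.71, and 0.88 over the 4 arrays without KO replicate 3 and WT replicate 2) and carbonic anhydrase 2 (*Car2*, r = 0.69, and 0.94 over those 4). *Slc4a1* had 157, 73 and 123 in *Jarid2* KO replicates 1, 2 and 3, and 70, 204 and 116 in *Jarid2* WT replicates 1, 2 and 3, so that KO replicate 1 lay above KO replicate 3. The nuclear RNA *Neat1*, coagulation factor X (*F10*) and the leukocyte phosphatase *Ptprc* followed with 0.59, 0.55 and 0.48. Over the 4 arrays without KO replicate 3 and WT replicate 2 they had 0.43, 0.15 and 0.99, and *Ptprc* was the highest of the 10 there. The other 5 named by the rule, *Agtrap*, *Itga2b*, *Tspan1*, *Bbc3* and *Gdf10*, had 0.34 to 0.41, and -0.52 to 0.56 over those 4 arrays.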

How the data were processed

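The submitters' notes name MAS5, with no version, for the intensity values that the authors deposited, which are linear whole numbers with a mean of 150 per array after 2% was trimmed at each end. For the published analysis RMA and limma are named, and RMA was not run because scanner files were not used here. No detection calls, dates or batches were used here, and the number of arrays limits the precision. Whether the arrays of a group come from separate litters is not stated, so that p-values measure the spread between these samples.

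Signals were raised to at least 16 and converted to log2. Of 45101 probe sets, 34958 carry 1 gene symbol, 932 several and 9211 none in the annotation used here, and the first were fitted as KO minus WT over 6 arrays with no covariate (R 4.3.3, limma 3.58.1, functions lmFit and eBayes). p-values were adjusted by Benjamini-Hochberg over these probe sets, with a threshold of 0.05. Each of 18194 genes was represented by its probe set of highest mean log2. The fit was tested on simulated data with 200 changed genes.

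The members, the related lists and the count of genes highest in KO replicate 3 and WT replicate 2 were chosen with earlier results of these data known. Named genes are every member, the 4 brightest of each related list (of lists of other cell types, examples), the 10 most alike in profile and any gene past the threshold. Neighbours, the genes highest on those arrays and some list markers were named after their values were seen. Alternatives covered normalization, floor, dim probe sets, choice of probe set, variance model, a replicate block, a covariate for Y-linked transcripts and each sample left out.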

Additional observations from a re-analysis of the deposited data

How the results depend on the processing

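The median log2 fold change of the 9 genes moved by less than the spread between replicates in all settings, at -0.43 to 0.44 with 1 sample left out and 0.0 to 0.44 otherwise, and 0 genes lay below every WT array in any setting where this was counted. Among single members only *Ahsg* moved by more, to -0.65 with a floor of 1. With a floor of 64, 4 of the 9 genes and 2 of the 75 further plasma proteins had KO replicate 3 and WT replicate 2 as the highest arrays, which leaves out dim genes by construction. Without WT replicate 2, 1 of the 9 genes lay above every WT array. These counts were added after seeing the data.

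The number of probe sets past the threshold, 1 as reported, was 5 with quantile normalization, 6 without dim probe sets, 2 over every probe set, and 0 with median centring, a floor of 1 or of 64, without probe sets at the floor on all arrays, and with 1 probe set per gene. It was 3 to 18 with 1 sample left out and 525 against WT replicate 3 alone with Y-linked transcripts as covariate. The cause was not tested. With the replicate number as a replicate block it was 0, and the median of the 9 genes stayed at 0.07. Whether the numbers pair the samples is not stated. Deviations from the group means correlated at -0.021 to -0.007 between samples of the same number and at -0.015 to 0.027 between the others. Values this near 0 in both cannot decide it. Of the 9 genes, 3 were above 16 on all arrays, and the other 6 were at or under it on at least 1 array, where their values have no order.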

Other observations

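The probe set annotated to *Trf* and *Srprb* together, which can be read as neither gene, had 223, 167 and 303 in *Jarid2* KO replicates 1, 2 and 3, and 112, 245 and 167 in *Jarid2* WT replicates 1, 2 and 3. KO replicate 3 and WT replicate 2 were its highest arrays, whereas the brightest probe set of *Srprb* alone had 265, 213 and 206 in KO and 327, 230 and 246 in WT replicates. Of the α1-antitrypsin family, a set of near-identical gene copies whose single values are uncertain, *Serpina1c* had 958 in WT replicate 1 and 9 to 36 on the other 5 arrays, and *Serpina1b* had 185 there and 42 to 79 elsewhere.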
